A study of Homo sapiens with 4 samples.

Results

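The genes described here are 8 regulators of fetal haemoglobin: LIN28B, IGF2BP1, IGF2BP3, HIC2, ZBTB7A, NFIA, NFIX and MYB. They were chosen by name, out of 19970 protein-coding genes. Their DNA methylation was read from whole-genome bisulfite sequencing of HUDEP-2 cells. The CpGs of each gene were those from 5 kb before the GENCODE gene to 5 kb after it, and for MYB also those of the interval between HBS1L and MYB. This gave 13836 CpGs listed in all 4 libraries, of 23269121 in the genome.

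HUDEP-2 cells are human erythroid precursors, immortalised and normally rich in adult haemoglobin, whose growth depends on doxycycline in the medium. Each of the 4 groups gave 1 library. The first came from non-differentiated cells. The other 3 came from cells taken through 4 days of differentiation with growth and 2 days of maturation, and were given DMSO alone, a compound against DNMT1 or one against EED, all at 0.1% DMSO from the expansion stage on. Compound names and doses were not given in the sources used here. The labels state that fetal haemoglobin increased under both inhibitors. DNMT1 copies CpG methylation onto new DNA, and EED belongs to PRC2, the Polycomb enzyme for histone H3 methylation.

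Red cells switch from fetal to adult haemoglobin around birth, when the gamma-globin genes are turned off and beta-globin takes over. LIN28B, IGF2BP1 and IGF2BP3 are RNA-binding proteins of the fetal stage, and LIN28B and IGF2BP1 are known to raise fetal haemoglobin when expressed in adult cells. HIC2 represses the gene of BCL11A, the main gamma-globin repressor. ZBTB7A (also called LRF) represses gamma-globin directly, NFIA and NFIX are nuclear factor I proteins that repress fetal haemoglobin, and MYB is a progenitor transcription factor whose distal enhancers between HBS1L and MYB carry common variation in fetal haemoglobin.

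A methylation level is the percent of reads at a set of CpGs that kept a C after bisulfite conversion, and differences are in percentage points. As each group was 1 library, replicate spread is unknown and conditions could not be tested against each other. Fisher's exact tests compared the reads of 2 libraries, and a call needed 25 points or more with an adjusted p below 0.01. Brackets hold 95% Wilson intervals, which reflect counting error alone, since neighbouring CpGs share reads and PCR copies are not independent molecules. The Fisher p-values have the same limit. A read that covers several CpGs of a promoter, gene body or window was counted at each of them, so those p-values tend to be too small. The tables listed 24689329 to 24971588 CpGs per library, at a mean coverage of 27.2 to 29.7 reads. Where 4 levels follow each other they are given in the order non-differentiated, DMSO, DNMT1 inhibitor, EED inhibitor. Over all shared CpGs these were 61.7%, 60.3%, 16.8% and 59.3%. Both inhibitor comparisons used the same DMSO library. Promoters of red cell markers were not uniformly low. Of 7 listed, 6 were tested: 3 were under 5% in DMSO, 2 were at 25% or more, and the median was 9.76%. EPB42 and KLF1 were under 5% and SLC4A1 read 83.5%. The 6 markers of other blood cells lay between 24.0% and 78.2%, with a median of 57.4%. Methylation does not measure expression.

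The 7 stretches that carry most of what follows are printed from hg38, plus strand, with each CpG in capitals. The first 2 show why the 2 starts of LIN28B are read apart: 250 bases before the MANE start (chr6:104956857-104957106) held 6 CpGs, and 250 bases in the dense stretch 490 to 241 bp before the upstream start of transcript LIN28B-203 (chr6:104940376-104940625) held 41. The third is the end of the HIC2 promoter that was listed at all (chr22:21416371-21416641, 1000 to 730 bases before the start). The fourth is the methylation border of the NFIX promoter (chr19:12994955-12995244, 520 to 231 bases before the start).
LIN28B MANE start: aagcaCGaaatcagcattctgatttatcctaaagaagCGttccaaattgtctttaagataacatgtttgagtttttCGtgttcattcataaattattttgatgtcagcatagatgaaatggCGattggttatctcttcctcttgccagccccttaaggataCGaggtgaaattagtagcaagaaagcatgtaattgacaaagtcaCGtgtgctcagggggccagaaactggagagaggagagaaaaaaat
LIN28B-203 start: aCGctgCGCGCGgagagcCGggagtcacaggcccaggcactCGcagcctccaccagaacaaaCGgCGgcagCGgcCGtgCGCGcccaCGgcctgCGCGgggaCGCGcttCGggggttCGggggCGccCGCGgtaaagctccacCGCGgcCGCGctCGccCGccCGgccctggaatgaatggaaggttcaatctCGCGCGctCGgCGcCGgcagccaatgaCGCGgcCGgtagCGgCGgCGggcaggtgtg
HIC2 promoter end: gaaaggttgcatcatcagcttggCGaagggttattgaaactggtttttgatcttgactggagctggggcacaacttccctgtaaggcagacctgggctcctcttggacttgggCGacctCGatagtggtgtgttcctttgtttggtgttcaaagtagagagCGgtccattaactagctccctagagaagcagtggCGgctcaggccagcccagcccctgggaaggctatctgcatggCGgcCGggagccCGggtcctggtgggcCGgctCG
NFIX promoter border: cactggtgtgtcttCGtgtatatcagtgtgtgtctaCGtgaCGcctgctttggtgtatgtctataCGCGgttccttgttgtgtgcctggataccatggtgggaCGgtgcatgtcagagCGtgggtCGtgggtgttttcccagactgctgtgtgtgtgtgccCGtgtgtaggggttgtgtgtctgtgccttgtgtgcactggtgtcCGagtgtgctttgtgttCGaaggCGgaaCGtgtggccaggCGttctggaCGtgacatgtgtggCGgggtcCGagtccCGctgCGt

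The other 3 stretches lie away from promoters. Parts of the low cores of the sites 84 kb (chr6:135097083-135097382) and 71 kb (chr6:135110197-135110496) before MYB are shown. In them the letters AGATAA, a form of the GATA factor site, are in capitals too on either strand. These parts hold 6 and 4 CpGs, fewer than the cores whose levels are given below. The last (chr7:23383740-23383801) lies in an IGF2BP3 intron around the 1 member CpG that differed with the EED inhibitor, which is the capital pair closest to the right end.
MYB 84 kb core: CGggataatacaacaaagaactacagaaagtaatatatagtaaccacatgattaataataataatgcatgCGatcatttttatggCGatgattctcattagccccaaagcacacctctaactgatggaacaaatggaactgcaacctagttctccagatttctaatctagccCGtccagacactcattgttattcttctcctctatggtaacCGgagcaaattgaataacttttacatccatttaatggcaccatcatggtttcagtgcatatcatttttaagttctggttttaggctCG
MYB 71 kb core: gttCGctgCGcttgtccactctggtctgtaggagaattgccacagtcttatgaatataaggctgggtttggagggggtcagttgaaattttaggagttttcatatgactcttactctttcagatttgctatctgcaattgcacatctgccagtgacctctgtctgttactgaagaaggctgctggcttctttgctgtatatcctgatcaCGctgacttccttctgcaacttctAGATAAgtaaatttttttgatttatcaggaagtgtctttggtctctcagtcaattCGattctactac
IGF2BP3 intron CpG: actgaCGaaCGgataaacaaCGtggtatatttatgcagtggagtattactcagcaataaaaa

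Promoters were taken from 1000 bp upstream to 500 bp downstream of the MANE transcript start. Of the 8, 5 were near 0 in every library: LIN28B, IGF2BP1, IGF2BP3, MYB and NFIA. HIC2 and NFIX had a methylated part, and ZBTB7A had no shared CpG. With the DNMT1 inhibitor, 2 of the 7 tested promoters were called lower (HIC2 and NFIX), where 43.7% of all promoters were. No member promoter was called for differentiation (0% of all promoters lower, 0% higher) or for the EED inhibitor (0% lower, 0.0221% higher). Few CpGs of these promoters could be compared. Of the CpGs in the reference sequence, 27 of 32 were shared at LIN28B, 22 of 108 at IGF2BP1, 34 of 85 at IGF2BP3, 6 of 162 at HIC2, none of 162 at ZBTB7A, 25 of 136 at MYB, 35 of 120 at NFIA and 32 of 163 at NFIX.

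Gene bodies ran from 500 bp after the start to the end of the gene. All 8 were called lower with the DNMT1 inhibitor, where 96.3% of all gene bodies were. In the other comparisons 0 of the 8 were called (0% of all bodies in each direction). Their levels in DMSO ran from 55.3% at LIN28B to 88.5% at HIC2, against a median of 75.2% over 18763 gene bodies. With the DNMT1 inhibitor they ran from 13.5% at LIN28B to 27.3% at IGF2BP3, against a median of 19.4%. The EED inhibitor differences ran from −1.89 points at MYB to 1.98 points at IGF2BP1.

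**Figure D1:**
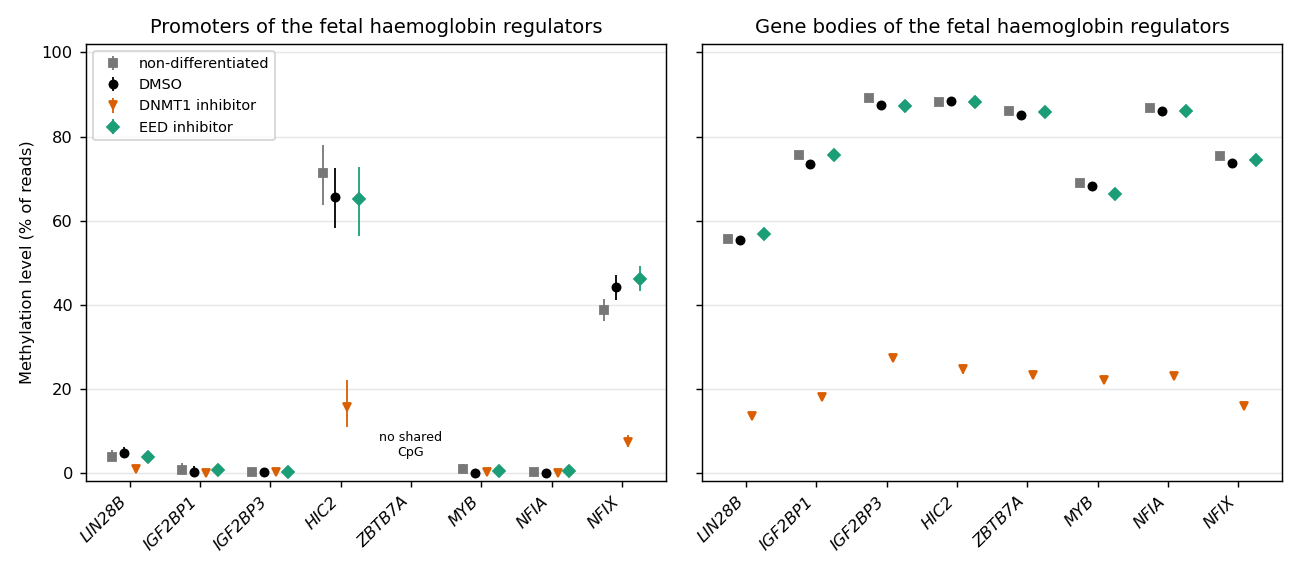
Methylation level (percent of reads, vertical axis) of the promoters (left) and gene bodies (right) of the 8 genes in the 4 libraries, with 95% Wilson intervals as bars. Promoters other than HIC2 and NFIX sit below 5% in all libraries, ZBTB7A has no point, and every gene body is lowest with the DNMT1 inhibitor.

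Over 1 kb windows of the 8 loci and the interval, 1129 of 1228 tested windows were called lower with the DNMT1 inhibitor, against 81.3% of all windows. NFIA (548 of 577) and IGF2BP3 (156 of 164) gave most of these, while LIN28B (112 of 136), MYB (38 of 47) and NFIX (95 of 113) were near the share of all windows. Of the 99 not called, 84 were under 25% in DMSO and could not fall by 25 points. No member window was called for differentiation (0.000864% of all windows lower, 0.000288% higher) or for the EED inhibitor (0.0266% lower, 0.00592% higher). The median window difference was −59.6 points with the DNMT1 inhibitor, against −42.4 points over all windows. It was −0.41 points for differentiation and 0.134 points with the EED inhibitor, against −0.952 and −0.709 points over all windows. Starting levels were unlike: 355 of 577 NFIA and 138 of 164 IGF2BP3 windows were at 80% or more in DMSO, but 14 of 136 at LIN28B. In the genome 566393 of 2431792 windows were. Neither the differences nor the calls were adjusted for the DMSO level, and its part in them was not tested. Of single CpGs, 10794 of 13836 were called lower with the DNMT1 inhibitor (63.6% of all CpGs lower, 4.3e-06% higher), none was called for differentiation (0% in each direction), and 1 was called lower with the EED inhibitor (0.00374% lower and 0.000623% higher over all CpGs). By locus the share of CpGs lower with the DNMT1 inhibitor ran from 58.9% at LIN28B and 63.4% at MYB, at or below that of all CpGs, to 86.6% at ZBTB7A and 87.7% in the interval.

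**Figure D2:**
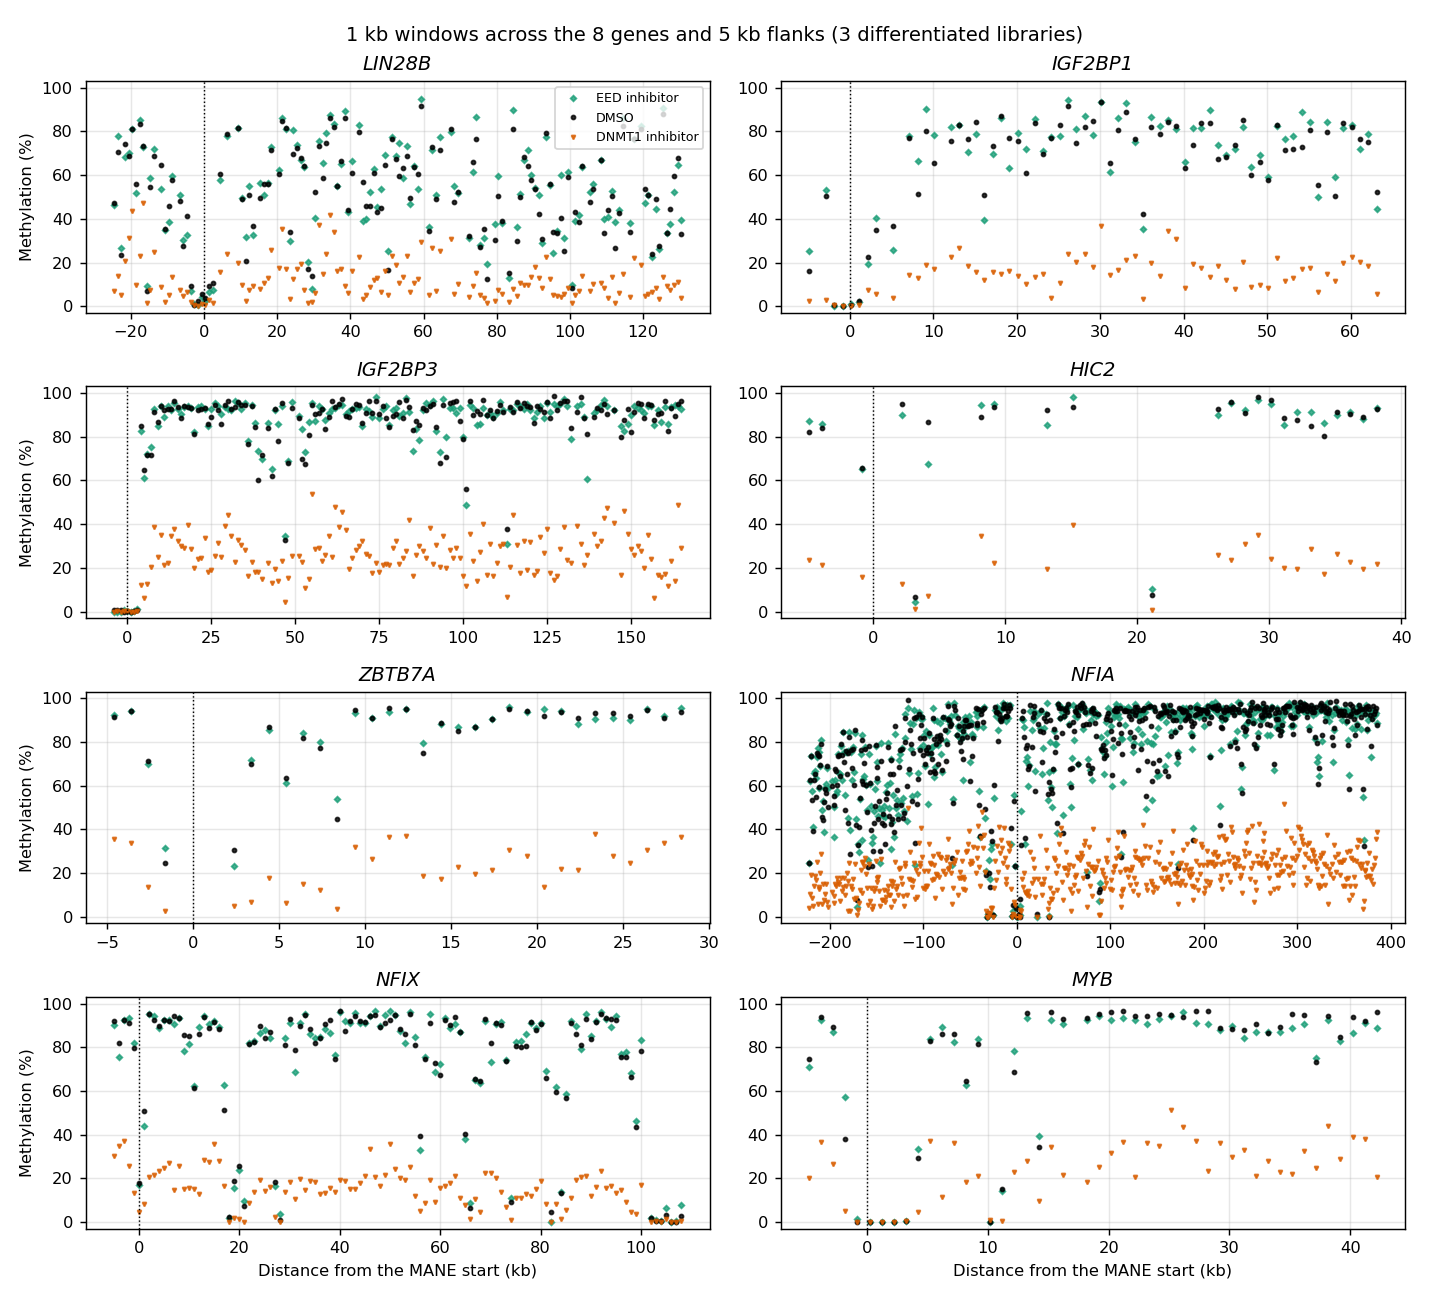
Methylation (percent) of 1 kb windows (points) across the 8 genes and 5 kb on either side, against the distance from the MANE start in kb (dotted line), in the DMSO, DNMT1 inhibitor and EED inhibitor libraries. Windows near most starts are near 0, and most LIN28B windows (53 and 61 of 136) lie at 10 to 50% or 50 to 80% in DMSO. The EED inhibitor points scatter around the DMSO points, most widely at NFIA, where the differences run from −27.3 to 22.9 points.

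LIN28B encodes an RNA-binding protein that blocks maturation of let-7 microRNAs and marks fetal blood progenitors. Its promoter (chromosome 6, 104956107 to 104957607) read 3.87% (2.74 to 5.44), 4.67% (3.49 to 6.24), 0.937% (0.475 to 1.84) and 3.73% (2.65 to 5.22). The DNMT1 inhibitor difference of −3.74 points was too small for a call (Fisher's exact test, adjusted p 1.60e-06). The promoter had the fewest CpGs in the reference sequence of the member promoters. It lay in 7 windows in a row under 20%, from −4.11 kb to 2.89 kb around the start.

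The LIN28B gene body (104957608 to 105083332, 921 shared CpGs) was the least methylated of the 8. It read 55.7% (55.2 to 56.3), 55.3% (54.8 to 55.9), 13.5% (13.2 to 13.9) and 56.8% (56.4 to 57.3). In DMSO it stood above 23.7% of gene bodies. Its windows were spread over middle levels: 53 of 136 lay at 10 to 50% in DMSO and 61 at 50 to 80%, and 14 were at 80% or more. In IGF2BP3, by contrast, 138 of 164 windows were at 80% or more.

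An upstream LIN28B start kept a larger share of its DMSO level with the DNMT1 inhibitor than the gene body did. Transcript LIN28B-203 begins 16.2 kb before the MANE start, in CpG-dense sequence that also lies in the antisense gene LIN28B-AS1. Over its promoter span (83 shared of 147 CpGs) the level was 52.8%, 50.7%, 29.1% and 54.9%. With the DNMT1 inhibitor 57.3% of the DMSO level was kept. At the gene body the share kept was 24.5%.

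The methylation of this upstream start was uneven, higher in a stretch before the start than in a stretch after it. Bounded after the values were seen, the 47 CpGs from 700 to 241 bp before it read 71.3% (68.6 to 73.8), 74% (70.9 to 76.8), 48.6% (45.1 to 52.1) and 74.5% (71.8 to 76.9). The 33 shared CpGs from 120 to 500 bp after it read 7.59%, 5.47%, 1.23% and 9.46%. The dense stretch before the start thus kept 65.7% of its DMSO level with the DNMT1 inhibitor. The 1 kb window that holds most of it (104940001 to 104941000, 50 shared of 98 CpGs) was the highest of the LIN28B locus with that inhibitor, at 47.2%, after 73.1% in DMSO. It kept 64.6% of its DMSO level. The genome had 6123 windows with 40 or more shared CpGs and 50% or more in DMSO. Their median kept was 41.7% and their 95th percentile 63.0%, and the LIN28B window stood above 96.3% of them. As this window was named for its high level with that inhibitor, the rank describes it and is no separate support. The 47 CpGs had 16.8 to 24.6 reads each on average.

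IGF2BP1 and IGF2BP3 encode fetal-stage proteins that bind and stabilise messenger RNAs. The IGF2BP1 promoter (chromosome 17, 48996385 to 48997885) read 0.783% (0.267 to 2.28), 0.292% (0.0516 to 1.64), 0% and 0.709% (0.241 to 2.06). A count of 0 there allowed a level of up to 0.826%. The IGF2BP3 promoter (chromosome 7, 23469991 to 23471491, minus strand) read 0.146%, 0.258%, 0.285% and 0.25%, with no interval reaching above 1.03%. At each of these promoters the intervals of the 4 libraries overlapped. The IGF2BP3 start sat in the longest unmethylated stretch at the start of any member, 8 windows from 4.51 kb before to 3.49 kb after it, at 0.441% in DMSO. Its upstream end is the edge of the measured flank and not an observed border. That of IGF2BP1 covered 4 windows, at 0.975%.

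The bodies of these 2 genes were methylated. IGF2BP1 (48997886 to 49056145, 707 CpGs) read 75.6% (75 to 76.3), 73.6% (72.9 to 74.2), 17.9% (17.4 to 18.5) and 75.5% (74.9 to 76.2). IGF2BP3 (23310209 to 23469990, 1722 CpGs) read 89.1% (88.8 to 89.4), 87.6% (87.3 to 87.9), 27.3% (26.9 to 27.7) and 87.3% (87.0 to 87.6). IGF2BP3 thus had the higher level in every library, and its highest window with the DNMT1 inhibitor was 53.8%, a CpG-dense window (44 shared CpGs, 23415001 to 23416000) at 94.3% in DMSO. In its MANE exons and introns the DMSO level was 66.2% and 87.6%, and exons 1 and 2 lie in the unmethylated start.

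The single CpG called with the EED inhibitor lay in an IGF2BP3 intron, at position 23383760 of chromosome 7. In the stated order it read 100% of 23 reads, 96.8% of 31 (83.8 to 99.4), 16.7% of 42 and 34.6% of 26 (19.4 to 53.8). The EED inhibitor difference was −62.2 points (Fisher's exact test, adjusted p 0.00777). Neighbouring CpGs were not low in that library. The CpGs 15 and 11 bp before it read 87.0% and 91.7% with the EED inhibitor, and that 58 bp after it read 100%.

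HIC2 encodes a zinc finger repressor that binds the BCL11A enhancer. Its promoter (chromosome 22, 21416371 to 21417871) read 71.3% (63.6 to 78.0), 65.7% (58.2 to 72.5), 15.8% (11 to 22.1) and 65.1% (56.4 to 72.8). The difference of −49.9 points with the DNMT1 inhibitor was called (Fisher's exact test, adjusted p 9.25e-21). These 6 CpGs lie 977 to 763 bp before the start, in the outermost bases printed above. The values describe the edge of the promoter and not the start. With 500 bp on either side as the promoter, or with at least 20 reads per CpG, too few shared CpGs were left for a test.

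Single CpGs within those printed bases were uneven. In DMSO the CpGs at −977, −887, −881, −839, −805 and −763 bp read 100%, 44.4%, 37.8%, 87.5%, 82.1% and 73.3%. The next 4, which were not listed in every library, read 73.3%, 33.3%, 27.3% and 18.2%, at 11 to 15 reads each. Inside the gene, 5 CpGs at the start of transcript HIC2-202, 3.27 kb after the MANE start, read 7.41%, 6.60%, 1.34% and 4.17%. The start of HIC2-203 had no listed CpG. The gene body (21417872 to 21451463) rested on 256 of 823 CpGs and read 88.3% (87.4 to 89.1), 88.5% (87.6 to 89.3), 24.6% (23.5 to 25.8) and 88.2% (87.3 to 89.1). It was the highest of the 8 in DMSO. Only 24 of 44 windows of the locus could be tested.

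ZBTB7A encodes a zinc finger repressor that binds the gamma-globin promoters. No CpG of its promoter (chromosome 19, 4066399 to 4067899, minus strand) was listed in all 4 libraries, and none was listed in the EED inhibitor library. In their own CpGs, the non-differentiated library read 0.256% over 25 CpGs, DMSO 0% over 26 and the DNMT1 inhibitor library 0% over 23. Counts of 0 allowed up to 1.03% and 1.21%. The first window with values upstream (4068001 to 4069000, 1.6 kb before the start) read 26.1%, 24.8%, 2.87% and 31.6%. The gene body (4043303 to 4066398, 643 CpGs) read 86.0% (85.5 to 86.5), 85.2% (84.6 to 85.7), 23.4% (22.8 to 24.1) and 85.8% (85.2 to 86.3).

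NFIA and NFIX encode related factors that bind the same DNA motif, yet their promoters differed. The NFIA promoter (chromosome 1, 61081561 to 61083061) read 0.299% (0.0821 to 1.09), 0%, 0% and 0.52% (0.177 to 1.52). The 0% values allowed up to 0.509% and 0.485%. The NFIX promoter (chromosome 19, 12994475 to 12995975) read 38.6% (36.1 to 41.3), 44.1% (41.2 to 47.1), 7.46% (6.13 to 9.06) and 46.2% (43.2 to 49.3). Its DNMT1 inhibitor difference of −36.6 points was called (Fisher's exact test, adjusted p 6.57e-97).

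The NFIX value averaged 3 unlike stretches, bounded after the values were seen. The 7 CpGs from −900 to −540 bp read 88.7%, 90.3%, 14.9% and 87.7%. The 7 CpGs from −510 to −400 bp read 45.4% (40.2 to 50.7), 47.5% (42 to 53.1), 11.5% (8.48 to 15.4) and 56.0% (49.5 to 62.3). The 18 shared CpGs from there to −180 bp read 4.99%, 2.64%, 0.698% and 2.93%. In the middle stretch, shown in the printed border, neighbouring CpGs were unlike each other: the CpG at −506 bp read 11.1% in DMSO and that at −455 bp read 90.9%. Closer than 180 bp to the start no CpG was shared. With 500 bp on either side as the promoter, the difference was −17.4 points and no longer called, and as an unweighted mean over CpGs it was −25.2 points.

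**Figure D3:**
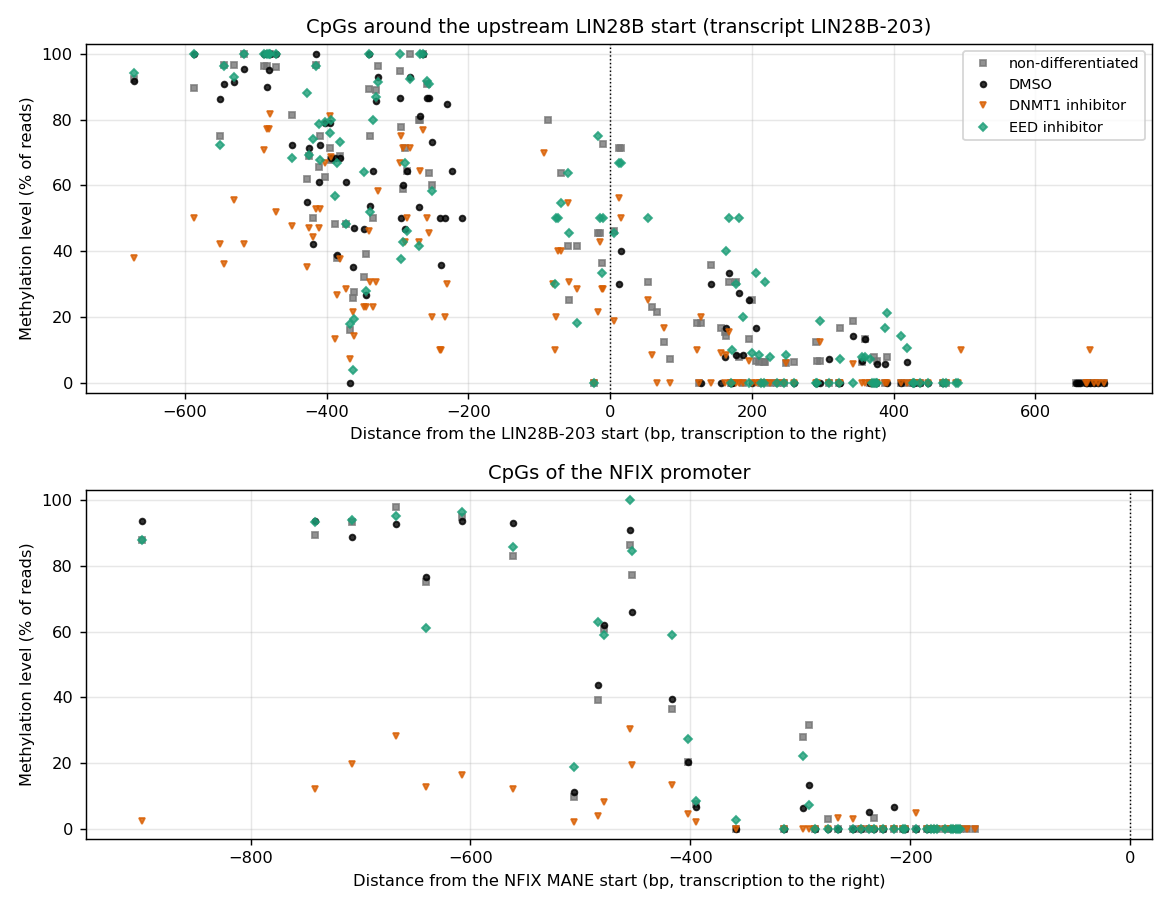
Methylation level (percent of reads) of single CpGs in the 4 libraries, against distance in bp from the upstream LIN28B-203 start (top) and from the NFIX MANE start (bottom). Levels are higher before the LIN28B-203 start than after it, and drop on the way towards the NFIX start. The DNMT1 inhibitor points stay higher before LIN28B-203 (48.6%) than in the outer NFIX promoter (14.9%).

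The outer NFIX stretch and the dense stretch before LIN28B-203 read 90.3% and 74% in DMSO, and kept 16.5% and 65.7% of them with the DNMT1 inhibitor. The 2 stretches differ in CpG density, with 7 CpGs in 361 bases and 47 in 460 bases. Over all windows of the genome with 40 or more shared CpGs and 50% or more in DMSO, the median kept was 41.7%. The role of density was not tested.

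The NFIA gene begins 217 kb before its MANE start with the transcript NFIA-206, whose promoter span read 58.5%, 64.1%, 11.9% and 67.2%. The nearer upstream start of NFIA-223, at −5.17 kb, read 3.66%, 2.27%, 0.114% and 1.59%. Between the gene's start and the MANE start the level was 64.2%, 63.3%, 18.0% and 64.1% over 2009 CpGs. After the MANE start the body (61083062 to 61462788, 3114 CpGs) read 86.7% (86.5 to 86.9), 86.1% (85.9 to 86.3), 23% (22.8 to 23.3) and 86.0% (85.8 to 86.2). The NFIA body was thus higher than the upstream part in every library. Low stretches lay upstream too, among them 3 windows 33.6 to 30.6 kb before the start at 7.44% in DMSO.

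The NFIX body (12995976 to 13098796, 2008 CpGs) read 75.3% (75 to 75.7), 73.8% (73.4 to 74.1), 15.9% (15.6 to 16.2) and 74.4% (74 to 74.7). Several low stretches lay inside it. One, 2 windows from 26.5 to 28.5 kb after the start, read 12.4%, 12.7%, 1.31% and 12.6%. The promoter span of transcript NFIX-209, which begins 28.5 kb in, reaches beyond it and read 24.4%, 25.3%, 1.71% and 29.2%. The last, 7 windows at 1.29% in DMSO, covers exon 11 and the flank, where the gene LYL1 lies on the other strand. It runs to the edge of the measured flank.

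The window of the members with the smallest adjusted p for differentiation and for the EED inhibitor was the same, in NFIX 17 kb after the start (13012001 to 13013000, 63 shared CpGs). It read 64.0%, 51.2%, 16.7% and 62.6%. DMSO was 12.7 points below the non-differentiated library (adjusted p 1.93e-07, Fisher's exact test), and the EED inhibitor library was 11.4 points above DMSO (adjusted p 2.30e-05, Fisher's exact test). Both are under the 25-point threshold, and both comparisons use the DMSO library, which was lower than both others. The next 2 windows (13013001 to 13015000) read 6.92%, 7.62%, 0.694% and 5.99%. At 3 other member windows the EED inhibitor library was more than 10 points from DMSO with an adjusted p under 0.01 by Fisher's exact test. How many of all windows in the genome pass this looser rule was not counted, so these windows are a description only. A window of IGF2BP1 at exon 15 (49051001 to 49052000, 11 CpGs) read 80.4%, 72.8%, 17% and 88.8%, and one of the interval before MYB (135116001 to 135117000, 11 CpGs) read 68.0%, 55.8%, 23.7% and 68.5%. A window of IGF2BP3 (23333001 to 23334000, 5 CpGs) read 71.7%, 81.4%, 25.7% and 60.6% and was the only one of these lower with the EED inhibitor. Just under 10 points, another window of the interval before MYB (135152001 to 135153000, 7 CpGs) was lower too. It read 91.8%, 94.7%, 29.2% and 84.8%, an EED inhibitor difference of −9.94 points (Fisher's exact test, adjusted p 0.0067).

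MYB encodes a transcription factor of blood progenitors, and lower MYB activity is known to go with more fetal haemoglobin. Its promoter (chromosome 6, 135180308 to 135181808) read 1.01% (0.461 to 2.18), 0%, 0.135% (0.0239 to 0.762) and 0.48% (0.187 to 1.23). The 0% in DMSO allowed up to 0.523%. The start lay in 5 windows in a row, from 1.31 kb before to 3.69 kb after it, at 0.201% in DMSO. A second low stretch of 2 windows, at intron 5 and exon 6, read 11.3%, 12.6%, 0.770% and 12.0%.

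The MYB gene body (135181809 to 135219173, 400 CpGs) read 69.0% (68.3 to 69.7), 68.1% (67.4 to 68.8), 22% (21.4 to 22.7) and 66.2% (65.5 to 66.9). It had the largest EED inhibitor difference of the bodies downward, −1.89 points (Fisher's exact test, adjusted p 0.00194). With the DNMT1 inhibitor it kept 32.3% of its DMSO level, more than 83.6% of gene bodies. The highest window with that inhibitor (135206001 to 135207000, in intron 15) still read 51.2%, after 94.7% in DMSO.

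The interval between HBS1L and MYB (135103057 to 135181307, 611 CpGs) read 82.0% (81.5 to 82.4), 80.4% (79.9 to 80.8), 27.5% (27.0 to 28.0) and 79.9% (79.5 to 80.4). Only the DNMT1 inhibitor difference of −52.9 points was called. The interval kept 34.2% of its DMSO level, above 89.8% of gene bodies. In windows at 80% or more in DMSO, the median kept was 34.0% in the interval and 34.1% at MYB, against 28.9% (quartiles 22.7 and 36.0) over 566393 such windows. The other loci had medians of 21.4% (NFIX), 23.6% (IGF2BP1), 24.8% (HIC2), 26.0% (LIN28B), 26.7% (NFIA) and 29.5% (IGF2BP3 and ZBTB7A). The 5 windows just before MYB count in both loci. Coverage was also higher at both, with 42.9 to 45.1 reads per CpG in the interval and 39.9 to 44.2 in the MYB gene body, and the part of depth in this was not tested.

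**Figure D4:**
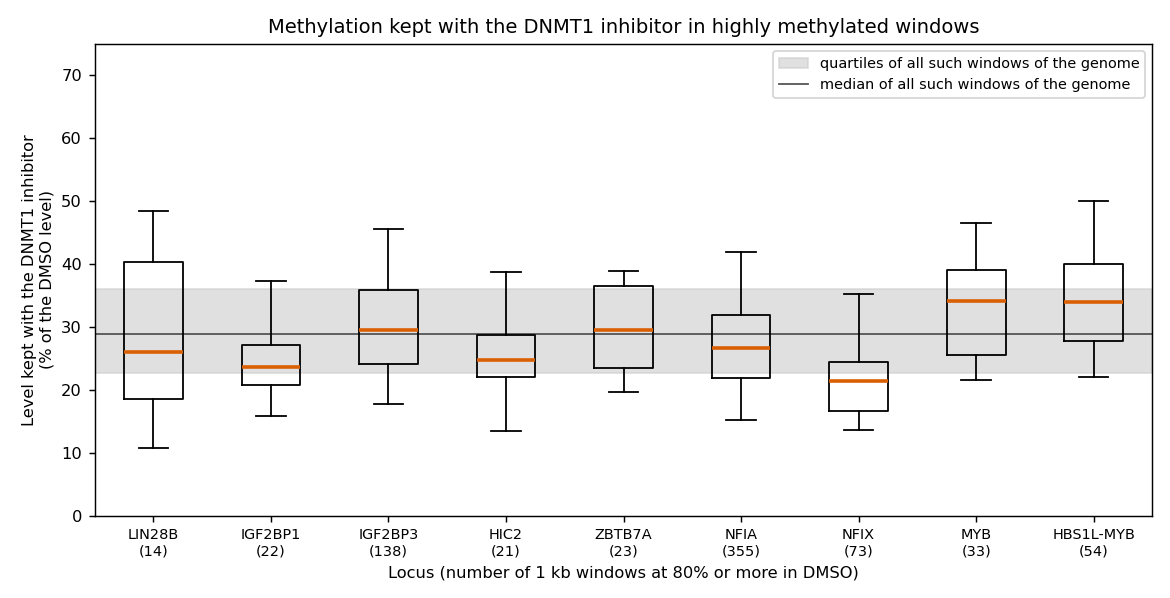
Level with the DNMT1 inhibitor as percent of the DMSO level (vertical axis) in 1 kb windows at 80% or more in DMSO, as boxes from quartile to quartile with the median (orange) and whiskers from the 5th to the 95th percentile, for each locus. The grey band and line are the quartiles (22.7 and 36.0) and median (28.9) of all such windows. MYB and the interval have the highest medians and NFIX the lowest.

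Regulatory sites of MYB are known 84 and 71 kb before its start, and each was measured over 1000 bp on either side. The 84 kb site lies in the outer part of the HBS1L gene as annotated, and the 71 kb site in the interval. The 84 kb site (135096308 to 135098308, 13 CpGs) read 19.7% (16.8 to 23), 20.5% (17.7 to 23.5), 7.11% (5.50 to 9.14) and 22.9% (20 to 26.1). The 71 kb site (135109308 to 135111308, 15 CpGs) read 41.9% (38.3 to 45.6), 43.5% (40.1 to 47.0), 13.2% (11.1 to 15.8) and 44.5% (41.2 to 47.8). Both read below the level of the interval in every library.

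Each site had an unmethylated core in every library, also in non-differentiated cells. The 9 CpGs of the 84 kb core read 0%, 0.389% (0.107 to 1.41), 0% and 1.38% (0.668 to 2.81), and the highest single value was 4.26%. The CpGs at −963 and −952 bp from the same point read 94.4% and 100% in DMSO. Between them and the core, the CpG at −291 bp read 55.9%, 46.5%, 12.8% and 76.4%, at 43 reads in DMSO and 55 with the EED inhibitor. The 5 CpGs of the 71 kb core, from 259 bp before to 177 bp after the point, read 1.20%, 2.54%, 0.305% and 4.64% (2.83 to 7.52). At its edge the CpG at 361 bp after the point was back at 89.5% in DMSO. Core bounds were set after the values were seen.

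The printed 300 bases of the 71 kb core hold AGATAA once, on the plus strand, and those of the 84 kb core do not hold it on either strand. Neither the parts of the 2 cores outside the printed bases nor other forms of the GATA factor site were searched. Of 566915 windows of 300 bases on chromosome 6, 22.5% hold it on 1 strand or both. The 250 bases printed before the LIN28B MANE start hold it 2 times, at −195 and −122 bp, left in lower case there. Such a match describes letters and not binding.

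**Figure D5:**
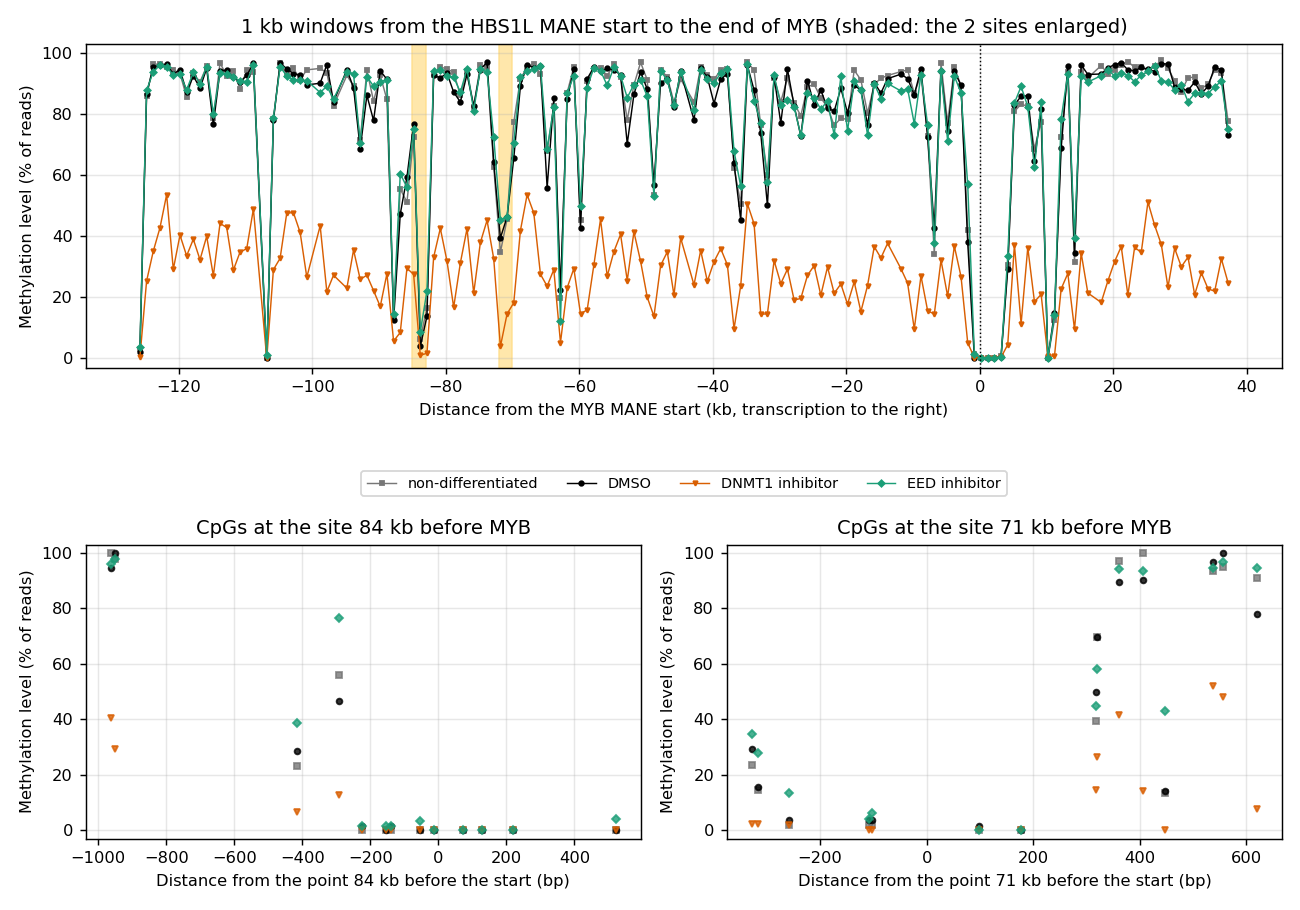
Methylation level (percent of reads) of 1 kb windows from the HBS1L MANE start to the end of MYB, against distance from the MYB start in kb (top), and of single CpGs within 1000 bp of the points 84 kb and 71 kb before the start (bottom), in the 4 libraries. CpGs near each point are close to 0 in all 4 libraries, with methylated CpGs further out.

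By a rule of likeness over the 4 library levels, the HIC2 promoter was nearest to those of EIF5A2, SEPTIN1 and WDR49, at distances of 1.51 to 2.44 points. The NFIX promoter was nearest to those of GLYAT, AHCY and HDAC5, at 1.5 to 1.60 points. In every library the Wilson intervals of these HIC2 and NFIX levels are wider than the distances, so the choice of neighbours lies within counting error. The 5 tested promoters under 5% in all 4 libraries shared this with 18.1% of 18118 promoters. Among gene bodies, LIN28B was nearest to WASF3, IGF2BP1 to LRRC45, IGF2BP3 to GRAMD4, HIC2 to EPN2, ZBTB7A to MACO1, NFIA to PRKACA, NFIX to BCL9L and MYB to EBLN2, at 0.204 to 0.775 points.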

How the data were processed

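Whole-genome bisulfite sequencing of 4 HUDEP-2 libraries, 1 per group, was used as deposited tables of CpG calls. Per the labels, bisulfite conversion used the EZ DNA Methylation-Lightning kit, libraries the Accel-NGS Methyl-Seq kit, and lambda DNA was spiked in. The submitters' processing notes name Trim Galore 0.6.7, cutadapt 4.1, Bismark, Bowtie2 2.1.0, methylKit and hg38, with no roles or order. Per the file headers, the deposited tables give for each CpG the coverage (a read count) and what percent were C or T. No listed CpG had under 10 reads.

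Read counts of C were recovered from the deposited percent and coverage, rounded where within 0.0005 of coverage. Each listed position was taken as a CpG, and no strands were merged here. Genes were those of GENCODE 44. Only CpGs listed in all 4 libraries entered comparisons. A promoter or gene body needed 5 shared CpGs and a 1 kb window 3. Reads were summed per unit and compared between 2 libraries with Fisher's exact test, two-sided, with Benjamini-Hochberg adjustment over all units of a kind in the genome (scipy 1.17.1, numpy 2.4.6, pandas 2.3.3). Calls required 25 points or more and an adjusted p below 0.01. An upper limit for a level of 0 is 3 reads of the total. The code was tested on simulated data.

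The members and lists were chosen with earlier results of these data known, and stretches within loci were bounded after CpG values were seen. Named were all 8 genes and, from each locus, the called window with the largest difference, the window highest with the DNMT1 inhibitor and that lowest in DMSO (both of at least 5 shared CpGs), of which the text gives a selection. The 3 nearest genes were taken by Euclidean distance over the 4 levels. From the list of 41 other regulators, at most 10 with a called promoter were named by size. Motifs were searched as AGATAA on both strands. Alternatives changed the coverage minimum, the CpGs used, the weights, very deep CpGs, the spans and both thresholds.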

Additional observations from a re-analysis of the deposited data

How the results depend on the processing

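No paired analysis was possible because each group had 1 library. Of 156 alternatives for 24 counts of calls, 146 kept the count within 1.5 times and 10 did not. With at least 20 reads per CpG, 1 promoter in place of 2 was called lower with the DNMT1 inhibitor, and with 500 bp on either side of the start 0 were. In both settings HIC2 had too few shared CpGs for a test. With the EED inhibitor, windows called lower went from 0 to 1 with at least 20 reads, with 10 points and with an adjusted p of 0.05, and windows called higher from 0 to 3 with 10 points. For differentiation, windows called lower went from 0 to 1 with 10 points. CpGs called with the EED inhibitor went from 1 to 4 lower and from 0 to 1 higher with an adjusted p of 0.05, and from 0 to 1 higher with at least 20 reads. The cause was not tested, and shares over all promoters, windows and CpGs at these settings were not counted. Of 393 alternatives for 48 single differences, 383 stayed the same and 1, the NFIX promoter over 500 bp on either side, lost its call (−17.4 points). The other 9, all unweighted means over CpGs, moved by more than the counting interval, among them the interval difference with the EED inhibitor (0.265 points in place of −0.423) and the NFIX promoter with the DNMT1 inhibitor (−25.2 in place of −36.6). Differences that were not called changed sign in 20 of those that stayed the same. The ZBTB7A promoter had no value to compare. With the interval taken from the HBS1L MANE start, chosen after seeing the data, the DNMT1 inhibitor difference was −49.7 points. Most CpGs of the HIC2 promoter and all of the ZBTB7A promoter were not listed in every library, so the 4 libraries could not be compared there, and why they were not listed was not tested.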

Other observations

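Other fetal haemoglobin regulators and relatives of the 8 genes, a list of 41, were read in the same way. Of 35 tested promoters 11 were called lower with the DNMT1 inhibitor, or 31.4%, against 43.7% of all promoters. A call needs a DMSO level of at least 25%, which 12 of the 35 had, and the 11 were among these. Over all promoters 9622 of 18118 had it, and 7916 were called. None was called in another comparison. The median difference with the DNMT1 inhibitor was −12.8 points, against −20.8 points over all promoters. The 10 with the largest differences were WIZ, SOX6, UHRF1, BACH1, POGZ, SPOP, MYBL2, NR2C1, ZNF644 and GATAD2A. WIZ, a zinc finger partner of the H3K9 methyltransferases EHMT1 and EHMT2, read 85.5%, 81.7%, 14.0% and 79.9% (non-differentiated, DMSO, DNMT1 inhibitor, EED inhibitor). SOX6, a partner of BCL11A, read 95.9%, 93.0%, 30.2% and 91.0%. MYBL2, a relative of MYB, read 59.8%, 55.9%, 18.2% and 54.1%, unlike the MYB promoter near 0. Of the gene bodies 38 of 40 (95%) were called lower with the DNMT1 inhibitor, against 96.3% of all gene bodies.

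The other relatives of the 8 genes with a shared promoter CpG read below the median of all promoters in DMSO, which was 27.5%. In DMSO, LIN28A read 8.82%, HIC1 16.1%, NFIB 10.3%, NFIC 9.43%, ZBTB7B 0% and ZBTB7C 2.18%, and IGF2BP2 had no shared CpG. The ZNF410 promoter, whose gene product drives CHD4, read 16.6%, 19.2%, 5.24% and 9.02%. Its EED inhibitor difference of −10.2 points was too small for a call (Fisher's exact test, adjusted p 2.23e-09).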
